A study of Homo sapiens with 5 samples.

Results

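Interferon-stimulated genes and interferon regulatory factors (IRFs) were followed in the human SCLC cell line NCI-H209 after 24 h of contact-free co-culture with HBMECs. The 54 genes were taken by name from a list of interferon receptors, IRFs and interferon-inducible effectors, and all 54 were found among the 64837 entries of the count tables. The 3 untreated control samples were compared with the 2 co-cultured samples, whose tumor cells shared medium with HBMECs through a Transwell membrane.

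NCI-H209 is an established neuroendocrine SCLC line and was grown in RPMI-1640 with fetal bovine serum. HBMECs are endothelial cells of the small vessels of the human brain and were grown in RPMI-1640 with fetal bovine serum and Nu-serum. The methods do not name the medium during co-culture, and its part in the results was not tested. RNA was harvested from the tumor cells, depleted of rRNA and sequenced as a directional library. The labels do not say whether the control wells held an empty insert, and neither the labels nor the methods say that the samples came from separate cultures, so the p-values measure the spread between these samples, which may be technical. All values come from 1 cell line and 1 time point.

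Interferons are secreted proteins that bind paired receptor chains and activate JAK kinases, which phosphorylate STAT proteins. Type I interferon drives a complex that holds STAT2 and IRF9 to the interferon-stimulated response element, and interferon gamma acts through gamma-activated sites, also in the promoter of IRF1. The genes switched on include sensors of viral RNA, enzymes that degrade or edit it, proteins that block entry or budding, and the ubiquitin-like modifier ISG15. Tumor cells can carry part of this program without infection.

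The promoters of several members hold these elements, and 6 whose genes were higher after co-culture are shown first so that these members can be read beside their promoters. Sequences are from RefSeq on GRCh38.p14, 5′ to 3′ on the strand of the gene. Capitals mark the core of the interferon-stimulated response element (GAAA, any 2 bases, GAAA), read on either strand, and in IRF1 they mark TTCNNNGAA, the gamma-activated site. Neighbouring matches can overlap, so that 1 run of capitals may hold more than 1 match.
ISG15, chr1:1013339-1013444, plus strand: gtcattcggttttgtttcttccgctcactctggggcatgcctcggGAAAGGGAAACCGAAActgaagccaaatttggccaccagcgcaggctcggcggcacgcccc
IFIT1, chr10:89392462-89392574, plus strand: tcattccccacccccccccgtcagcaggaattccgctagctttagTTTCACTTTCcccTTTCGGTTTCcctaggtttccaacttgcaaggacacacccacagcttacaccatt
IFIT3, chr10:89327796-89327929, plus strand: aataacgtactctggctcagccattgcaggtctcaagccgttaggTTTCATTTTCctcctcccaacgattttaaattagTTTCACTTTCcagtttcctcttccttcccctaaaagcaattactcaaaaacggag
IFITM3, chr11:320861-320957, minus strand: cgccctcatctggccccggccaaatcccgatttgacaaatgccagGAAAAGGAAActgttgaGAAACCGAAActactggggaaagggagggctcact
BST2, chr19:17405700-17405805, minus strand: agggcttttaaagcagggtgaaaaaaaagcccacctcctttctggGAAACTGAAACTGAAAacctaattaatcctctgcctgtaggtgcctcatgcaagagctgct
IRF1, chr5:132490844-132490942, minus strand: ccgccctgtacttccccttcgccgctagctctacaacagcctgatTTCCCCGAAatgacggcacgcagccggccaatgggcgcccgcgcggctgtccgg

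Promoters of HERC5 and IFI6 are given for comparison, because they hold 3 matches each to the same core while neither gene passed the test.
HERC5, chr4:88456949-88457099, plus strand: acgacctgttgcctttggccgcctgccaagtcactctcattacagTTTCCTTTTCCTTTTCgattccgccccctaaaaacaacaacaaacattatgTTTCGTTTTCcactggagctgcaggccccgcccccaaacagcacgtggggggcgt
IFI6, chr1:27672231-27672393, minus strand: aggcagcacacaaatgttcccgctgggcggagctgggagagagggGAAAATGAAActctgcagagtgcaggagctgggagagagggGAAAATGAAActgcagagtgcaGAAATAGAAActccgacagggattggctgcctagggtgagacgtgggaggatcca

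RefSeq promoters, from 250 before to 50 after the start, were matched for 40 of the 54 members. The core of the response element, searched on both strands, was present in 24 of them (60%) and in 996 of all 27305 promoters (3.65%). TTCNNNGAA was present in 10 (25%) and in 2152 of all promoters (7.88%). A single window could hold both motifs, as that of BST2 did. Among the members that rose after co-culture, 17 of 25 matched promoters (68%) held the response element core and 5 (20%) the gamma-activated site. Among those tested that did not pass, 3 of 5 (60%) held the core and none the gamma-activated site, and among those with too few counts to test the numbers were 4 and 5 of 10. The members were chosen as interferon-inducible genes, so the high share of the element in them is a description of the list. A match of letters is not a bound site, and the difference between members that rose and the 5 that did not pass was not tested.

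**Figure D1:**
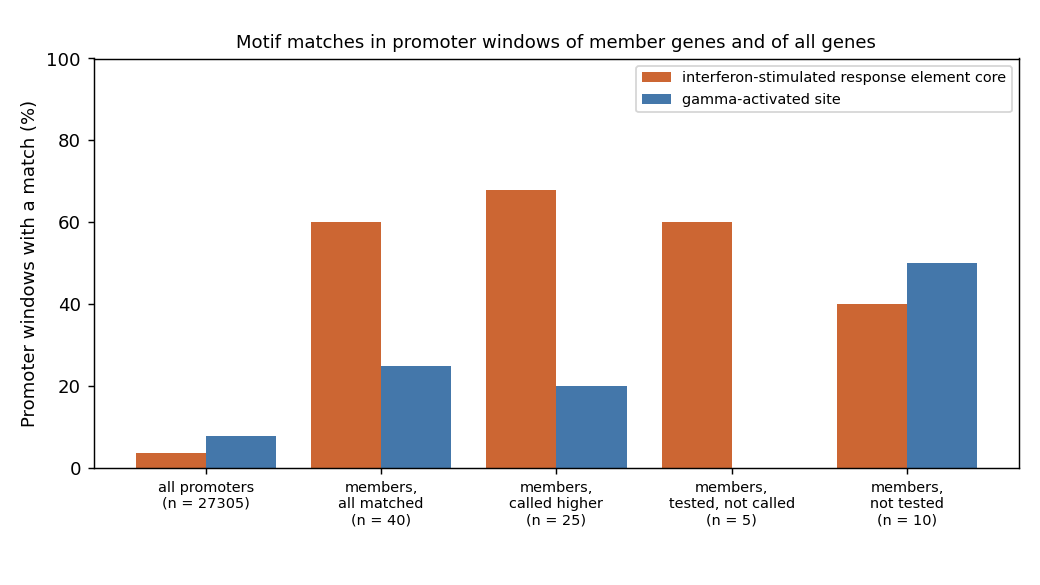
Share of promoters, in percent, with a match to each element among matched members, split by the outcome of the test, beside all RefSeq promoters, with bars for the response element core and for the gamma-activated site. The response element core stood in 17 of 25 promoters of members that rose, in 3 of 5 of tested members that did not pass, and in 3.65% of all promoters.

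The libraries held 17317045 to 19157348 counts in control and 15457071 and 18918787 in the co-cultured group, so that 3 counts equal 0.154 to 0.198 CPM (counts of a gene scaled to the library total after TMM normalization). Counting intervals given here are 95% exact intervals and cover counting error only. Libraries differed between groups in more than the members. Unmapped reads were 8.13% to 8.48% in control and 15.9% and 16.8% in the co-cultured samples, and reads in no gene were 47.4% to 51.2% against 40.1% and 40.8%. The part of these differences in the results was not tested. Neuroendocrine markers summed to 1902 to 2392 CPM in control and 2515 and 2611 CPM after co-culture. SYP and NCAM1 were expressed, whereas CHGA had at most 1 count in every library and lies in a stretch where 11 of the 20 nearest protein-coding genes were also listed at 0. The 12 endothelial markers summed to 9.58 to 19.3 CPM in control and 12.9 and 13.1 CPM after co-culture. TIE1, ROBO4 and EMCN were at or under 3 counts in every library. VWF had 4.15 to 8.45 CPM in control and 4.76 and 5.95 CPM after co-culture, and ERG 2.82 to 3.72 against 2.84 and 2.71 CPM. KDR had 37, 27 and 2 counts in control against 12 and 4, and TEK 31, 24 and 0 against 6 and 3. Of the 8 endothelial markers tested, ESAM rose (log2 fold change 2.15, adjusted p = 0.00666) and none fell, but ESAM passed the filter on low counts only through the co-cultured libraries. None of the other 7 was called. The 8 leukocyte markers summed to 2.20 to 4.63 CPM in control and 5.96 and 6.28 CPM after co-culture, with PTPRC and CD68 at or under 3 counts in every library. Of the 3 leukocyte markers tested ITGAM rose (log2 fold change 2.52, adjusted p = 0.000236). CSF1R had 27, 14 and 0 counts in control and 0 counts in both co-cultured samples and did not pass (adjusted p = 0.0628). The part of ESAM, ITGAM and CSF1R in the results was not tested. In bulk RNA, a change in the number of responding cells and a change in the RNA of each cell cannot be told apart.

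Most measurable members were higher after co-culture, and none was called lower. The 54 members together made up 620.4 to 703.1 CPM in control and 1039 and 1187 CPM in the co-cultured samples. The groups did not overlap on this sum. Of the 43 members with enough counts to test, 33 rose (76.7%) at a Benjamini-Hochberg adjusted p under 0.05 in the quasi-likelihood test of edgeR, which ran over 20360 genes. For comparison, 18.4% of all genes tested were called higher and 15% were called lower. The median log2 fold change of the tested members was 1.06, with a range of -0.11 to 2.88, and that of all genes tested was -0.03. Every co-cultured value was above every control value for 38 of the 43 (88.4%), against 29.4% of all genes tested, and for no member was it the reverse, against 30% of all genes. The study's methods set thresholds on the fold change and on p, which were read here as a log2 fold change above 1 and an unadjusted p under 0.05. By this reading 22 members were upregulated DEGs (51.2%) and none was a downregulated DEG. The shares of all genes tested were 5.44% and 5.01%. Of the 43, 5 members, IRF7, OASL, IFITM2, GBP5 and IFI44, passed the filter on low counts only through the co-cultured libraries. Such entry favours genes that are higher after co-culture, although IRF7 was not called. Of the other 38 tested members, 29 rose and none was called lower.

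The number called rested on both co-cultured samples, and more on replicate 1 than on replicate 2. Without co-cultured replicate 1 the count of members that rose was 16 and without replicate 2 it was 25, while 8.21% and 8.94% of all genes were then called higher. Co-cultured replicate 1 was above replicate 2 for 41 of the 43 tested members (95.3%), against 50.1% of all genes tested. Among the control samples, replicate 1 was the highest for 29 of the 43 (67.4%), against 41.7% of all genes. All 33 kept their direction in each of the 13 alternative analyses that tested them, and 16 were called in each.

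**Figure D2:**
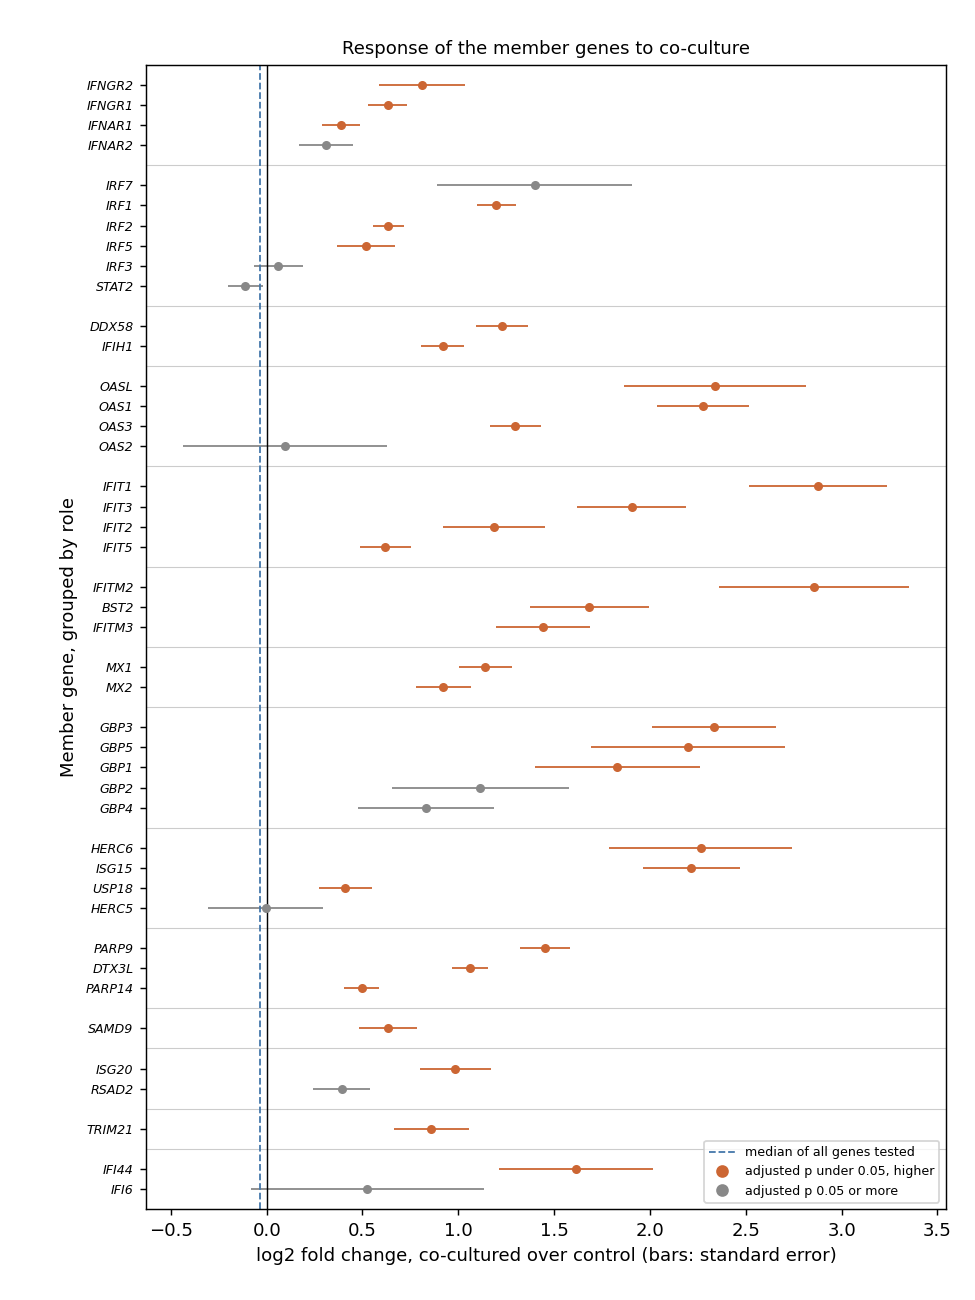
Log2 fold changes after co-culture (bars, SE) for the 43 members tested, ordered within role groups, with the members that passed the test set apart by color and a dashed line at the median of all genes tested. The estimates run from -0.11 for STAT2 to 2.88 for IFIT1, and the 33 that passed lie at 0.39 or above.

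Of the 4 receptor chains, all expressed in the control samples, 3 rose after co-culture and none was called lower. IFNAR1, a chain of the type I interferon receptor, was at 102, 82.3 and 85.7 CPM in control and 121.5 and 114 CPM after co-culture, so the groups stood apart by a narrow margin (log2 fold change 0.39, SE 0.10, adjusted p = 0.0165). IFNGR1, the ligand-binding chain of the interferon gamma receptor, had 27.5, 23.8 and 26.5 CPM against 37.7 and 42.7 CPM (0.63, SE 0.10, adjusted p = 0.00197). Its partner IFNGR2 had 2.20 to 3.37 CPM in control and 4.97 and 4.89 CPM after co-culture (0.81, SE 0.23, adjusted p = 0.0228). It was called in 9 of the 13 alternative analyses and is named here after its values were seen. IFNAR2, the other type I chain, had 7.08 to 7.63 CPM against 9.40 and 8.98 CPM and did not pass the test (0.31, SE 0.14, adjusted p = 0.125). Of the exonic bases of IFNAR2, 44.2% lie in another gene model on the same strand, so its counts are uncertain. None of the 4 receptors reached the DEG thresholds.

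Of the 6 transcription factors tested, 3 rose and 3 did not pass. IRF1, an activator that is itself induced by interferon gamma, was at 29.7, 32.7 and 26.5 CPM in control and 70.1 and 65.9 CPM after co-culture. Both co-cultured samples were above all control samples by far more than either group's spread (means 29.7 ± 3.11 (SD, n = 3) and 68.0 ± 2.97 (SD, n = 2), log2 fold change 1.20, SE 0.10, adjusted p = 8.13e-05). Its promoter holds the gamma-activated site shown above and no response element core. IRF2, which competes with IRF1 for the same element, had 38.3, 40.7 and 41.0 CPM against 64.4 and 59.8 CPM (0.63, SE 0.08, adjusted p = 0.000591). IRF5, which acts below Toll-like receptors, had 6.41 to 7.83 CPM against 10.4 and 9.91 CPM (0.52, SE 0.15, adjusted p = 0.0272), and it was called in 7 of the 13 alternative analyses and is also named after its values were seen.

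STAT2, the STAT protein specific to type I and III interferon, was at 54.0, 57.9 and 53.8 CPM in control and 54.7 and 47.4 CPM after co-culture. The groups overlapped (log2 fold change -0.11, SE 0.09, adjusted p = 0.377). IRF3, the factor that first switches on interferon genes after RNA or DNA sensing, had 20.5, 25.3 and 26.7 CPM against 26.2 and 24.2 CPM, again with overlap (0.06, SE 0.13, adjusted p = 0.747). Its activity is set by phosphorylation, which RNA levels do not show. IRF7, its inducible relative, had 3 to 9 counts in control and 15 and 12 counts after co-culture and did not pass (1.40, SE 0.51, adjusted p = 0.0618), although it met the DEG thresholds. All its counts lay on an entry of a patch sequence, and on the opposite strand of that entry control had 97 counts against 17 on the gene's own strand.

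Both cytosolic RNA sensors rose. DDX58, which encodes RIG-I, was at 14.8, 12.8 and 13.4 CPM in control and 36.2 and 27.7 CPM after co-culture (means 13.7 ± 1.04 (SD, n = 3) and 32.0 ± 5.97 (SD, n = 2), log2 fold change 1.23, SE 0.14, adjusted p = 0.000270). The samples of IFIH1, which encodes MDA5, had 20.5, 17.8 and 19.8 CPM against 39.6 and 33.6 CPM (0.92, SE 0.11, adjusted p = 0.000451). For both genes the lower co-cultured sample lay above the highest control sample.

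Of the OAS family, whose enzymes make the 2′-5′ oligoadenylates that activate RNase L, 3 of 4 rose. OAS3 had the highest control level per kilobase of the family (6.06 CPM per kb), with 60.2, 43.6 and 46.2 CPM in control and 133 and 113 CPM after co-culture (log2 fold change 1.30, SE 0.14, adjusted p = 0.000208). OAS1 had 2.61, 2.43 and 1.89 CPM against 13.6 and 8.72 CPM (2.28, SE 0.24, adjusted p = 0.000210). The co-cultured samples of OAS1 differed from each other by more than the control samples did. OASL, which lacks the synthase activity, had 3 counts in each control sample and 16 and 12 counts after co-culture, a ratio of 5.25 with a counting interval of 2.41 to 12.6 (adjusted p = 0.00541). OAS2 had 12, 12 and 10 counts in control and 18 and 4 counts after co-culture. Its co-cultured values lay on both sides of all control values (log2 fold change 0.10, SE 0.53, adjusted p = 0.907).

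All 4 IFIT genes, whose proteins bind viral RNA and hold back its translation, rose. IFIT1 had 0.744, 0.277 and 0.666 CPM in control and 4.92 and 3.44 CPM after co-culture, with the highest estimate among the members tested (log2 fold change 2.88, SE 0.36, adjusted p = 0.000498). Of the counts at IFIT1, 73.3% in control and 22.4% after co-culture lay on the opposite strand, and without regard to strand the log2 fold change was 1.41. IFIT3, which pairs with IFIT1, had 2.02, 1.27 and 1.28 CPM against 6.83 and 4.56 CPM (1.90, SE 0.28, adjusted p = 0.0012). IFIT2 had 2.66, 1.83 and 1.74 CPM against 5.52 and 3.90 CPM (1.19, SE 0.27, adjusted p = 0.00865). IFIT5 had the highest control level per kilobase of the family (3.12 CPM per kb), with 11.6 to 14.4 CPM, and 19.4 and 19.1 CPM after co-culture (0.62, SE 0.13, adjusted p = 0.00710). The IFIT1 and IFIT3 promoters shown above hold 2 response element cores each.

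The IFITM proteins keep enveloped viruses from fusing with the cell, and BST2 (tetherin) holds budding virions at the surface. IFITM3 was at 5.42, 2.93 and 3.28 CPM in control and 11 and 10.1 CPM after co-culture (log2 fold change 1.44, SE 0.24, adjusted p = 0.00225). BST2 had 0.957, 0.664 and 0.819 CPM against 3.12 and 2.11 CPM (1.68, SE 0.31, adjusted p = 0.00347). Both promoters are among those shown above, with 2 matches each to the response element. IFITM2 had 2, 2 and 4 counts in control and 22 and 14 counts after co-culture (2.86, SE 0.50, adjusted p = 0.00252). IFITM1 had 0, 2 and 1 counts against 6 and 1 counts and was not tested, and 32.5% of its exonic bases overlap IFITM2 on the same strand, so the pair cannot be cleanly parted.

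**Figure D3:**
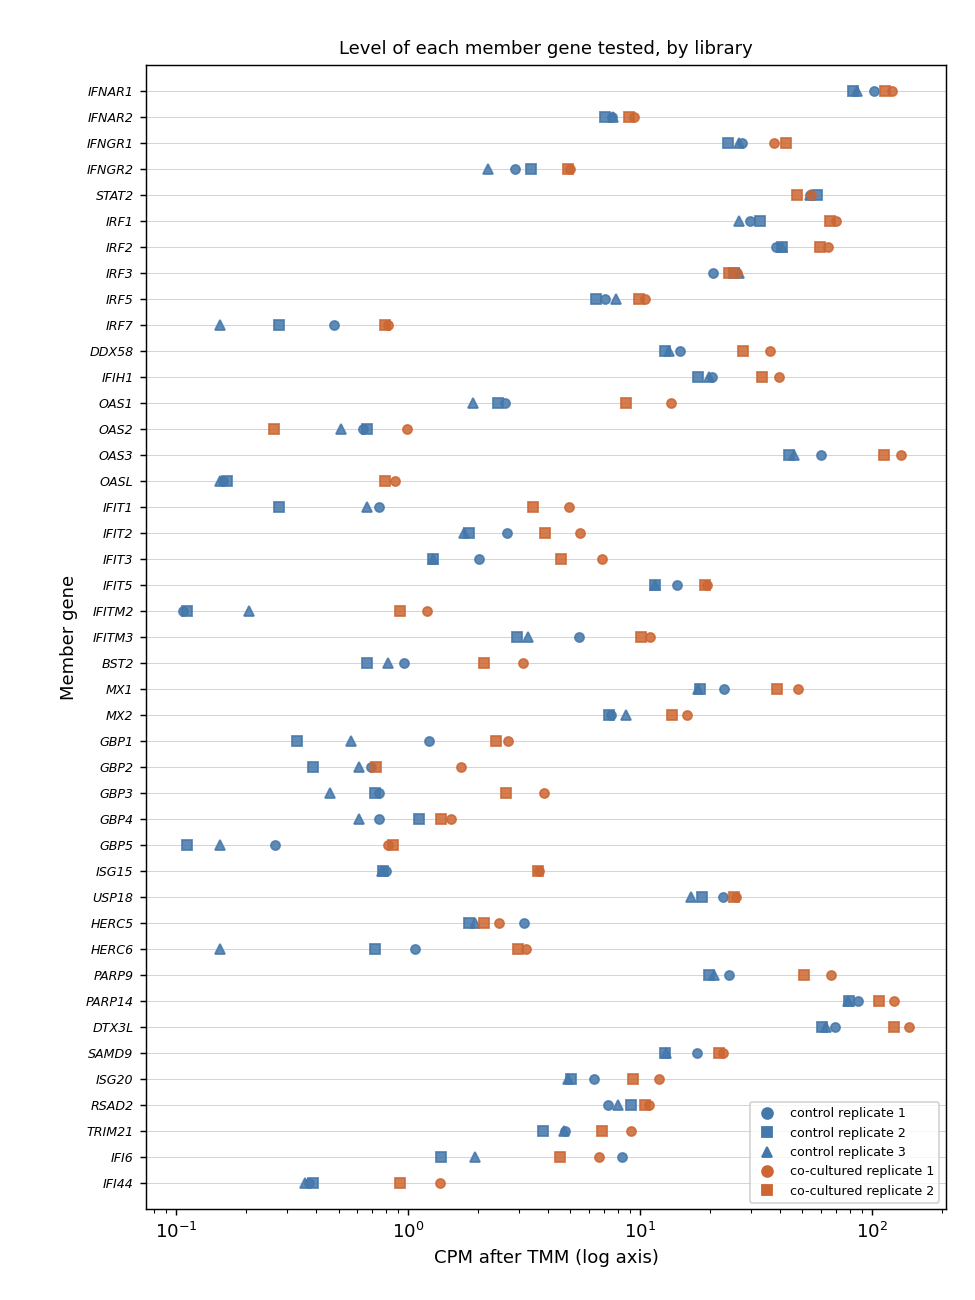
TMM-scaled CPM of the 43 tested members in every library on a log axis, with 3 control and 2 co-cultured points for each gene. IRF1, DDX58, OAS3, PARP9 and DTX3L show co-cultured points above all control points, and STAT2 and IRF3 show overlap.

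The dynamin-like MX GTPases trap viral nucleocapsids. MX1 was at 23.0, 18.1 and 17.8 CPM in control and 47.7 and 38.8 CPM after co-culture (log2 fold change 1.14, SE 0.14, adjusted p = 0.000424). MX2 had 7.44, 7.35 and 8.65 CPM against 15.9 and 13.7 CPM (0.92, SE 0.14, adjusted p = 0.00148). Both rose with no overlap between groups.

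The guanylate-binding proteins (GBPs), GTPases that are strongly induced by interferon gamma and attack vacuoles of microbes, were all at or below 1.22 CPM in every control sample. GBP3 had 0.744, 0.719 and 0.461 CPM in control and 3.83 and 2.64 CPM after co-culture (log2 fold change 2.34, SE 0.32, adjusted p = 0.000811). GBP1 had 23, 6 and 11 counts against 49 and 36 counts (1.83, SE 0.43, adjusted p = 0.0106), and GBP5 had 5, 2 and 3 counts against 15 and 13 counts (2.20, SE 0.51, adjusted p = 0.00964). GBP2 (1.11, SE 0.46, adjusted p = 0.0929) and GBP4 (0.83, SE 0.35, adjusted p = 0.10) did not pass, although their groups did not overlap. At these counts the spread between control samples was wide, as in GBP1.

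ISG15 is a ubiquitin-like protein that is joined to other proteins. Its samples were tight, with 0.798, 0.774 and 0.768 CPM in control and 3.66 and 3.63 CPM after co-culture (log2 fold change 2.22, SE 0.25, adjusted p = 0.000309). USP18, which removes ISG15 and damps the type I receptor, was at 22.8, 18.5 and 16.5 CPM against 25.8 and 25.4 CPM (0.41, SE 0.14, adjusted p = 0.0474), and it was called in 5 of the 13 alternative analyses. HERC6 had 20, 13 and 3 counts against 59 and 45 counts (2.26, SE 0.48, adjusted p = 0.00640). HERC5, the main ligase for ISG15 in human cells, had 3.14, 1.83 and 1.95 CPM against 2.46 and 2.11 CPM, and its groups overlapped (-0.01, SE 0.30, adjusted p = 0.991). The promoter of HERC5 holds 3 matches to the response element, as shown above, and that of ISG15 holds 2.

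PARP9 and DTX3L, which form a complex of an ADP-ribosyltransferase family protein and a ubiquitin ligase and are transcribed from a shared promoter region, rose together. DTX3L (chr3:122564238-122575203) was at 69.3, 61.0 and 63.3 CPM in control and 145 and 124.5 CPM after co-culture (log2 fold change 1.06, SE 0.09, adjusted p = 9.35e-05). PARP9 (chr3:122527924-122564577) had 24.0, 19.9 and 20.7 CPM against 66.7 and 51.0 CPM (1.45, SE 0.13, adjusted p = 0.000108). The exons of the pair share 3.7% of the bases of DTX3L on opposite strands. PARP14, a further member of the ADP-ribosyltransferase family, had 79.0 to 86.8 CPM against 124 and 107 CPM (0.50, SE 0.09, adjusted p = 0.00312). The groups of all 3 did not overlap.

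Of the remaining effectors with enough counts, SAMD9, ISG20, TRIM21 and IFI44 rose. SAMD9, a large antiviral protein, had 12.7 to 17.6 CPM in control and 22.8 and 21.9 CPM after co-culture (log2 fold change 0.63, SE 0.15, adjusted p = 0.0117). ISG20, a 3′ to 5′ exonuclease, had 6.33, 5.03 and 4.86 CPM against 12.0 and 9.31 CPM (0.98, SE 0.18, adjusted p = 0.00368). TRIM21, a cytosolic antibody receptor and ubiquitin ligase, had 3.82 to 4.73 CPM against 9.13 and 6.87 CPM (0.86, SE 0.20, adjusted p = 0.00917). IFI44 had 7 counts in each control sample and 25 and 14 counts after co-culture (1.62, SE 0.40, adjusted p = 0.0137), and it was called in 9 of the 12 alternative analyses that tested it. RSAD2, which encodes the radical SAM enzyme viperin, had 7.28 to 9.12 CPM against 10.9 and 10.4 CPM and did not pass (0.39, SE 0.15, adjusted p = 0.0723).

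For IFI6, an interferon-inducible gene, 1 control sample decided the outcome. Its control samples were at 8.35, 1.38 and 1.95 CPM and its co-cultured samples at 6.67 and 4.49 CPM, so control replicate 1 lay above both co-cultured samples while the other two controls lay below them (log2 fold change 0.53, SE 0.61, adjusted p = 0.541). Without control replicate 1 the log2 fold change was 1.75 and the adjusted p was 5.8e-05. That fit also called more of all genes, 26.5% higher and 23% lower, against 18.4% and 15% in the main analysis.

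In all, 11 members had too few counts for the main test. IRF8, IRF9 and IFI27 were listed at 0 in every library, and TRIM22 and IFI44L were at or under 3 counts in every library. The 0 values cannot all be read as levels. Of the 20 protein-coding genes nearest to IRF9, 19 were also listed at 0, including PSME1, PSME2 and IPO4, genes used in most cells, and of those nearest to IFI27, 14 were. At or under 3 counts in every library were 20 of the neighbours of IRF9 and 17 of those of IFI27, against 24.4% of all protein-coding genes. STAR's gene counting leaves out reads that map to more than 1 place, and the cause of the empty stretches was not tested. IRF9, the DNA-binding partner of STAT2, is therefore not measured here. IRF8, a factor of blood cells, lay among neighbours of which 1 of 20 was at 0. SAMD9L, the relative of SAMD9, had 3, 1 and 2 counts in control and 10 and 7 counts after co-culture, a ratio of 4.78 with a counting interval of 1.8 to 14.8. IFI16, IFI35, EPSTI1 and XAF1 had 2 to 13 counts in all libraries and did not pass the filter on low counts. Of the 20 protein-coding genes nearest to IFI16, 14 were at 0 and 18 at or under 3 counts. For TRIM22 these numbers were 13 and 15. The low counts of IFI16 and TRIM22 thus carry the same limit as those of IFI27.

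The estimates were larger in members with few control counts. The 14 tested members below 1 CPM in control had a median log2 fold change of 2.01, the 13 between 1 and 10 CPM 0.86, and the 16 at 10 CPM or above 0.63. In the same order, 10, 9 and 14 of them rose. A member with a low control level enters the test more easily when it is high after co-culture, so these medians are a description.

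Per kilobase of exon, the control level was highest for IFNAR1 (14.3 CPM per kb), IRF2 (12.8) and DTX3L (11). USP18 and STAT2 followed at 9.04 CPM per kb each, a tie within their spread. The length joins the exons of all annotated transcripts of a gene and can exceed that of the transcripts expressed. The order of genes is therefore approximate. After co-culture DTX3L stood first (22.9 CPM per kb), then IRF2 (19.9), IFNAR1 (18.7) and OAS3 (14.9). OAS3 thus moved from the ninth place to the fourth. ISG15 was at 0.829 CPM per kb in control and 3.88 CPM per kb after co-culture, below STAT2 in both groups.

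**Figure D4:**
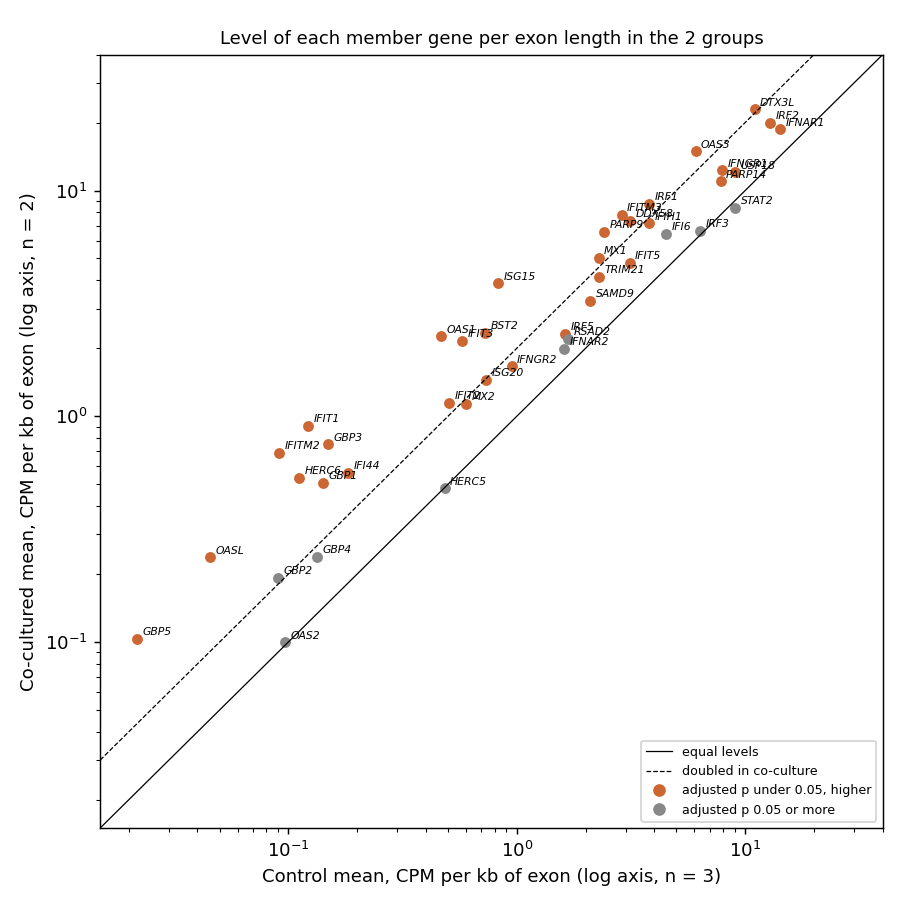
Mean CPM per kilobase of exon of the tested members other than IRF7, with control (n = 3) against co-culture (n = 2) on log axes, a solid diagonal at equal levels and a dashed line at a fold of 2. DTX3L rises from 11 to 22.9 CPM per kb, and STAT2 and IRF3 lie near the diagonal.

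The upstream parts of the pathway were followed with lists of further genes, written with earlier results of these data known. Of 21 interferon genes, none had enough counts for the main test, 18 were listed at 0 in every library and 20 were at or under 3 counts. The exception was IFNB1, the gene of interferon beta, with 0 counts in each control sample and 8 and 4 counts after co-culture (0.437 and 0.264 CPM). Its co-cultured mean was 2.2-fold a floor of 3 counts per control library, with no counting error included. It had too few counts for the main test. IFNB1 entered the alternative with at least 1 count in any library only through the co-cultured samples, so no p-value is given. Its log2 fold change there was 5.70. That estimate rests on 0 control counts. IFNL2 and IFNL3 had at most 2 counts in any library. Reads that map to more than 1 place were not counted, so a 0 at an interferon gene need not mean absence. This was not tested.

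Of 15 signal transducers and inhibitors, all tested, 7 rose and 1 fell, with a median log2 fold change of 0.18. Of all genes tested, 18.4% were called higher and 15% lower. JAK1, a kinase bound to both receptors (log2 fold change 0.58, adjusted p = 0.000706), PTPN11, a phosphatase (0.72, adjusted p = 0.000418), and IFNLR1, a chain of the type III receptor (0.79, adjusted p = 0.00111), rose. PIAS3, an inhibitor of STAT3, fell (log2 fold change -0.47, adjusted p = 0.00419).

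Of 13 genes of nucleic acid sensing, 10 were tested, of which 4 rose and 1 fell, beside 18.4% and 15% of all genes tested. TLR3, the endosomal receptor for double-stranded RNA, had 11, 6 and 7 counts in control and 58 and 36 counts after co-culture (log2 fold change 2.69, SE 0.35, adjusted p = 0.000582). It reached the filter on low counts in 1 control and both co-cultured libraries, and without it 3 of 9 rose. TMEM173, which encodes STING (0.84, adjusted p = 0.00195), IKBKE, a kinase of IRF3 (1.06, adjusted p = 0.00749), and TRIM25, a ligase of RIG-I (0.33, adjusted p = 0.0483), also rose. MAVS, the adaptor of both RNA sensors, was lower by a small amount (-0.30, adjusted p = 0.0171).

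Of 46 further interferon-stimulated genes, 43 were tested, of which 24 rose and none was called lower. Their median was 0.56 on the log2 scale, and 10 were upregulated DEGs, beside 5.44% of all genes tested. Of the 43 tested, 3 genes, IFI30, BATF2 and APOL1, passed the filter on low counts through the co-cultured libraries, and of the other 40 tested 23 rose. APOL6, of the apolipoprotein L family, had 45, 33.0 and 30.4 CPM in control and 127.5 and 113.5 CPM after co-culture (1.74, SE 0.15, adjusted p = 8.32e-05). PLSCR1, a phospholipid scramblase (1.02, adjusted p = 0.000127), NT5C3A, a nucleotidase (0.96, adjusted p = 0.000124), GCH1, the entry enzyme of tetrahydrobiopterin synthesis (0.98, adjusted p = 0.000266), and SLFN5 (0.79, adjusted p = 0.000185) were the next by p. For comparison, 18.4% of all genes tested were called higher.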

How the data were processed

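RNA-Seq of 3 control and 2 co-cultured samples was analysed. Per the labels and file headers, the authors base-called reads with CASAVA 1.8, aligned them to GRCh38 with STAR 2.6.1b and deposited raw counts per gene, 1 table per library, with a column without strand and 1 for each strand. The authors also deposited a DESeq2 comparison table with group means as normalized signal, fold changes and p-values. Only its gene names were used here, which matched 51 members, and 3 were matched through GENCODE 29.

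Counts of the library's strand were filtered with filterByExpr, normalized by TMM and tested with edgeR 4.0.16 (R 4.3.3) by its quasi-likelihood method, with p-values adjusted after Benjamini-Hochberg over 20360 genes, with no covariate. CPM are TMM-scaled. An exact permutation test of 3 against 2 samples cannot go below p = 0.1 and was not used. The script was tested on simulated data. Totals of 15457071 to 19157348 counts per library set the precision of low genes. Members and lists were chosen with earlier results of these data known. The text names every member called, up to 30 by smallest p, the most abundant member of each role, members at or under 3 counts in every library and up to 5 called genes of each further list. IRF5, IFNGR2 and other members outside this rule were named after their values were seen, and some genes that the rule names are not reported here. Alternatives were DESeq2 1.42.0, other normalizations and filters, a replicate block, unstranded counts, leaving out each sample and, chosen after seeing the data, protein-coding genes only.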

Additional observations from a re-analysis of the deposited data

How the results depend on the processing

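No result was reversed in the 13 alternatives. The count of members that rose was 33 and ran from 16 (without co-cultured replicate 1) to 36 (without control replicate 1) when 1 sample was left out, while the share of all genes called higher was 8.21% and 26.5%. With 1 co-cultured sample left, that sample was assumed to vary like the controls. Upregulated DEGs, 22 at first (5.44% of all genes), numbered 12 when at least 10 counts were required in every library (4.18%). That filter left 32 members tested. When 1 control sample was left out they numbered 21 to 24 (5.49% to 6.2% of all genes). DESeq2 called 30 members higher (16% of all genes), upper-quartile normalization 31 and unstranded counts 35 (16.2%). Upper-quartile normalization moved the median of all genes to -0.11. It called 15.1% of all genes higher and 19.3% lower, against 18.4% and 15%. Replicate numbers are shared by 2 samples in each group and no source ties them. With a replicate block 29 members rose (13.6% of all genes) and 21 were upregulated DEGs (5.53% of all genes). The deviations of same-numbered samples correlated at -0.106 across genes. The 11 members under the filter on low counts were not tested in the main analysis. DESeq2 and a filter of at least 1 count in any library each tested 51 members. With that filter the quasi-likelihood test called 35 members higher (11.1% of all genes). SAMD9L (log2 fold change 2.18) and GBP2 were gained. With that filter the same test gave far smaller p-values for some genes at an unchanged fold change. For OAS3 the adjusted p was 9.41e-36, against 0.000208 in the main analysis. The gains are therefore not read as results.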
